A study of Mus musculus with 6 samples.

Results

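Cyclic nucleotide signalling in the adrenal gland was followed through 48 loci of the deposited count table, out of 59699 loci in all, of which 53103 carry a gene name. The 48 were taken by name: adenylyl cyclases (Adcy), phosphodiesterases (Pde), regulatory and catalytic subunits of protein kinase A (Prkar, Prkac), its small inhibitors (Pki), and the transcription factors and coactivators Creb1, Crem, Crtc1 and Crtc2. The naming pattern also took Pde4dip, a centrosome and Golgi protein that binds a phosphodiesterase, and Pde6d, a chaperone of prenylated proteins, which are not phosphodiesterases. Total RNA of adrenal glands was sequenced after rRNA removal in 3 Armc5(-/-) (KO) and 3 wild-type (WT) samples. All were from female mice aged 30 weeks on a 129 sv X CD1 background, with no treatment given in the labels. The labels do not say which part of Armc5 was deleted, whether it was deleted in the adrenal alone, or whether each sample is 1 animal, so the p-values below rest on a spread between samples that may be technical.

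In the adrenal cortex, corticotropin binds its receptor MC2R, which acts through the stimulatory G protein on adenylyl cyclase, and the cAMP that is made releases the catalytic subunits of protein kinase A (PKA) from its regulatory subunits. The kinase then drives steroid synthesis, in part through CREB proteins and their CRTC coactivators at cAMP response elements (CRE). Phosphodiesterases end the signal by breaking down cAMP, cGMP or both. In human adrenal disease, mutations of PRKAR1A, PRKACA, PDE8B and PDE11A are known, and ARMC5 itself is mutated in bilateral macronodular adrenal hyperplasia.

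Promoters of 2 regulatory subunit genes are shown because Prkar1a is the most abundant member per length and holds a full CRE, while Prkar1b is the regulatory subunit whose KO and WT libraries did not overlap. The sequences are from RefSeq (GRCm38.p6) and run from 250 bases before a transcript's start to 50 bases of the transcript, and capitals mark the CRE letters TGACGTCA in the first and the shorter CRE core TGACG in the second.
Prkar1a, chr11:109650699-109650998, plus strand: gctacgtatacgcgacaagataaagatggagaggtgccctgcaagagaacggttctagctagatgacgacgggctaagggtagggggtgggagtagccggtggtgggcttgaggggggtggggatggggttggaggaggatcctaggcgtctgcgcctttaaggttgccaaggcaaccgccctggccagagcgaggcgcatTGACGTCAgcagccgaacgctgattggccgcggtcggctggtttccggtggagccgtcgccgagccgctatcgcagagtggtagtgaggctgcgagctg
Prkar1b, chr5:139149952-139150251, minus strand: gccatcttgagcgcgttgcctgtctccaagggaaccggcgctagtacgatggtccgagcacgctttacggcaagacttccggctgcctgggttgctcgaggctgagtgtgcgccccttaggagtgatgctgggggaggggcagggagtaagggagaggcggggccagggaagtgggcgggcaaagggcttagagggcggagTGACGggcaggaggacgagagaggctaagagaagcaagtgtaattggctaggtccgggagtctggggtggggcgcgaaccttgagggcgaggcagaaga
In the printed windows the full CRE of Prkar1a begins 49 bases before the start, and so does the CRE core of Prkar1b. Another Prkar1a window has an earlier start, and there the same letters begin 38 bases after the start. Of the 48 genes 36 had an entry, with 77 promoter windows between them. TGACGTCA, which reads the same on both strands, was in 2 of the 77 windows (2.60%), both overlapping windows of Prkar1a that hold the same 8 bases at 109650900 to 109650907, against 1.79% of all 32851 windows. TGACG, searched on both strands and contained in the full CRE, was in 17 of the 77 (22.1%), against 20.8% of all windows. These are matches of letters only, near the share in all windows.

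The libraries held 70547288 to 130573434 counts, and the members took 0.276% to 0.301% of the counts of named loci in KO and 0.236% to 0.266% in WT. Mitochondrial loci took 13.2% to 13.7% of the same counts in KO and 14.8% to 17.6% in WT. Armc5 was at 3.58, 3.53 and 3.66 CPM (counts per 1000000) in KO and 27.3, 25.3 and 27.8 CPM in WT (log2 fold change -2.90, SE 0.10, adjusted p = 0.00041 by the edgeR quasi-likelihood test). All CPM values are scaled by TMM factors. The libraries also differed in cell markers. Summed markers of chromaffin cells, the catecholamine cells of the medulla (14 of 14 tested, 4 called higher), stood at 6420, 6074 and 5870 CPM in KO and 2958, 4199 and 3045 CPM in WT, with no overlap. Those of steroid-making cortex cells (11 of 11 tested, none called) stood at 38495, 33115 and 36579 CPM in KO and 72038, 42637 and 54639 CPM in WT, again with no overlap. Taken locus by locus, 13 of the 14 chromaffin markers had every KO library above every WT library, against 16.3% of all tested loci. Of the 11 cortex markers, 4 had every KO library below every WT library, against 14.2%. Of all tested loci, 1.41% were called higher. Macrophage markers (8 of 8 tested, none called) summed to 211, 247 and 224 CPM in KO and 251, 1101 and 761 CPM in WT, and endothelial markers (9 of 9 tested, none called) to 769, 621 and 746 CPM in KO and 817, 974 and 971 CPM in WT. Hepatocyte markers (5 of 7 tested, none called) summed to 3330 CPM in KO replicate 3 and to 56.1 CPM or less in every other library. None of these markers was at 0 in all libraries. In bulk RNA of a gland, fewer cells of a type and less RNA per cell cannot be told apart.

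None of the member loci was called. Of the 48, 45 passed the count filter and were tested, and the smallest edgeR quasi-likelihood adjusted p among them was 0.0870 (Pde3b), while 1.84% of all 21358 tested loci were called at an adjusted p under 0.05. The share called higher was 1.41% and the share called lower 0.431%. At an unadjusted p under 0.05, 11 of the 45 members (24.4%) had a positive log2 fold change and 0 a negative one, against 12.5% and 9.73% of all tested loci. DESeq2 called 6 members (13.3%), all higher in KO (Adcy5, Pde4d, Pde3b, Pde1c, Pde9a and Prkar1b, adjusted p from 0.00688 to 0.0293), while among all its loci 7.49% were called higher and 4.88% lower. Limma-voom with sample weights called 6 (Adcy5, Adcy1, Pde4d, Pde3b, Pde1c and Prkar1b, adjusted p from 0.0301 to 0.0493), while it called 7.04% of all loci, 4.76% higher and 2.28% lower. Its weights were uneven, at 1.56, 1.04 and 1.16 for KO and 0.504, 0.567 and 1.85 for WT, in replicate order. Neither of these tools called a member lower. When 1 library was left out, edgeR called Pde4d without WT replicate 1 (log2 fold change 1.30, adjusted p = 0.0276) and Adcy1 and Pde3b without WT replicate 2 (1.12 and 0.97, adjusted p = 0.0197 and 0.0422). Of all loci, 0.923% were then called higher and 0.818% lower without WT replicate 1, and 2.42% and 0.531% without WT replicate 2. No member was called without any 1 of the other libraries, where the shares of all loci called higher and lower were 0.0537% and 0.0134% (without KO replicate 1), 0.0765% and 0.0225% (KO replicate 2), 0.12% and 0.0507% (KO replicate 3), and 0.0709% and 0.0177% (WT replicate 3).

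**Figure D1:**
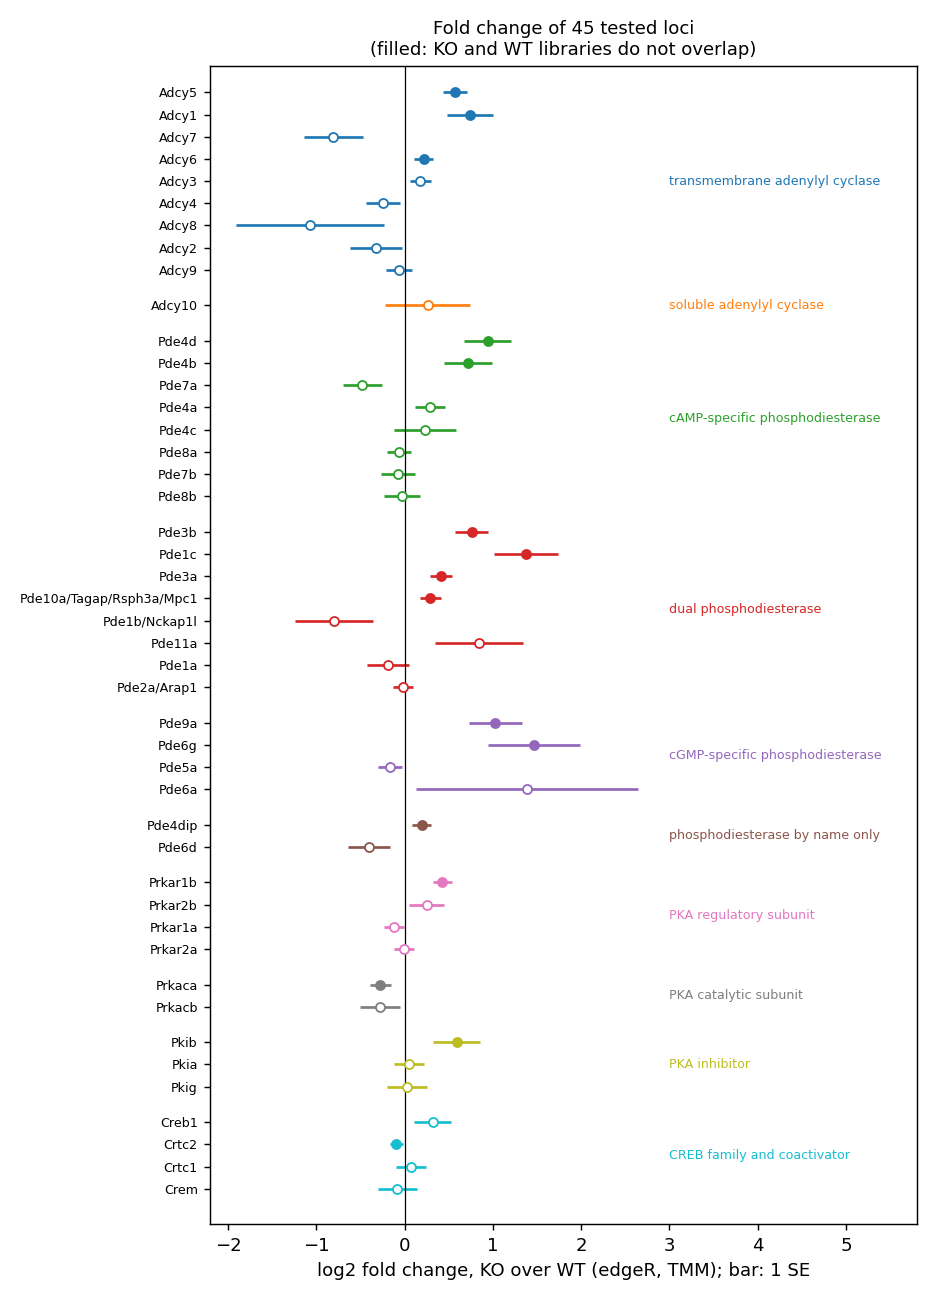
Log2 fold change of KO over WT for the 45 tested loci, grouped by family, with a bar of 1 standard error (SE) on each side. Filled points mark the 16 loci whose KO and WT libraries do not overlap, 14 of them right of 0 (Adcy5 and Pde3b among them) and Prkaca and Crtc2 left of it.

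The KO libraries all lay above the WT libraries in 14 of the 45 members (31.1%), against 16.3% of all tested loci, and below in 2 (4.44%), against 14.2%. These shares depend on scaling. Libraries were also scaled by total counts alone, and to equal counts of Rn7sk, a small nuclear RNA on which the authors also scaled a set of deposited log2 values. These raised the median log2 fold change of all loci to 0.22 and 0.19. Of the members named by rule (the rule is given under processing), 6 with small negative log2 fold changes became positive under both. These were Adcy9, Pde8b, Pde2a/Arap1, Pde5a, Prkar1a and Crtc2, and they remained below the median of all loci. Signs of members outside the rule under these scalings are not listed. Under RLE size factors all 6 stayed negative. With total counts alone they were 17 members above (37.8%), against 29.9% of loci, and 0 below, against 3.08%, while with equal Rn7sk counts they were 14 (31.1%) against 24.6%, and 0 against 2.74%. The median log2 fold change was 0.077 over the 45 members and -0.0063 over all tested loci. In 8 of the 14 members that lay above under TMM (Adcy5, Adcy1, Adcy6, Pde4b, Pde3b, Pde3a, Pde4dip and Prkar1b), WT replicate 2 was the highest WT library, as it was for the chromaffin marker sum. In 4 (Pde4d, Pde1c, Pde6g and Pkib) it was WT replicate 1, and in 2 (Pde10a and Pde9a) WT replicate 3. How often each WT library was highest among all loci with KO above WT was not counted. The part of medullary cells in these values was not tested.

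Transmembrane adenylyl cyclases make cAMP at the plasma membrane, and all 9 were measured with none called (2 of 9 had an unadjusted p under 0.05, both with a positive log2 fold change, while 22.2% of all tested loci had such a p, 12.5% with a positive one). Adcy9 (chromosome 16, 4284209 to 4420498) had the highest level per length, 9.74 ± 1.42 CPM per kb in KO and 10.2 ± 1.39 in WT (SD, n = 3 each), followed by Adcy3, at 8.69 and 7.68, and Adcy6, at 7.22 and 6.22 CPM per kb. Adcy9 stood at 116, 155 and 133 CPM in KO and 161, 122 and 140.2 CPM in WT, so that the groups overlapped, with a log2 fold change of -0.067 (SE 0.15) that turned positive with equal Rn7sk or total counts and without KO replicate 1 or WT replicate 1.

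Adcy5 (chromosome 16, 35154877 to 35305738), a cyclase inhibited by calcium, stood at 21.2, 20.0 and 20.1 CPM in KO and 13.8, 16.0 and 11.5 CPM in WT. The lowest KO library was above the highest WT library, and the log2 fold change was 0.57 (SE 0.14, adjusted p = 0.0892 by edgeR). Adcy1 (chromosome 11, 7063489 to 7178506), which calcium and calmodulin stimulate, stood at 37.9, 33.9 and 37.1 CPM in KO and 17.01, 31.3 and 16.8 CPM in WT. WT replicate 2 came close to the KO libraries while the other WT libraries were at about the same lower level, and the log2 fold change of 0.74 (SE 0.26, adjusted p = 0.169 by edgeR) was 1.12 without it. Adcy6, the close relative of Adcy5, stood at 49.1, 46.6 and 51.1 CPM in KO and 37.1, 45.3 and 44.0 CPM in WT, with no overlap and a log2 fold change of 0.22 (SE 0.10, adjusted p = 0.28 by edgeR).

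Adcy7, a cyclase known from blood cells, was picked for naming once its values were known. It stood at 11.7, 12.5 and 13.5 CPM in KO and 13.2, 34.3 and 18.4 CPM in WT, with a log2 fold change of -0.81 (SE 0.34, adjusted p = 0.229 by edgeR), or -0.31 without WT replicate 2. WT replicate 2 was highest, then WT replicate 3, then WT replicate 1, the same order as the macrophage marker sum, and the groups overlapped. In KO the order differed, with Adcy7 highest in replicate 3 and that sum highest in replicate 2. The part of macrophages in Adcy7 was not tested. Adcy3 lay between 51.5 and 57.3 CPM in KO and between 43.4 and 56.0 CPM in WT. The other transmembrane cyclases were lower in level, with Adcy4 between 3.77 and 5.51 CPM in KO and between 5.21 and 6.21 in WT, and Adcy2 between 2.12 and 2.87 CPM in KO and between 2.36 and 4.55 in WT. Nop9 on the other strand and an unnamed locus overlap Adcy4, with 9498 counts over the 6 libraries beside 3286 of Adcy4. Adcy8, which calcium and calmodulin stimulate, stood at 2.11, 0.354 and 1.72 CPM in KO and 4.13, 0.666 and 4.03 CPM in WT, replicate 2 being the lowest library of both groups. Gm21798 and an unnamed locus overlap it, with 3444 counts beside 1309 of Adcy8. Adcy10, the soluble cyclase that bicarbonate stimulates, was close to the filter, at 0.0906, 0.236 and 0.232 CPM in KO and 0.148, 0.132 and 0.187 CPM in WT, with overlapping groups (log2 fold change 0.26, SE 0.48, adjusted p = 0.79 by edgeR). The median log2 fold change of the 9 transmembrane cyclases was -0.067, and it became 0.13 with equal Rn7sk counts and 0.17 with total counts alone, which is -0.060 and -0.048 relative to the median of all loci.

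**Figure D2:**
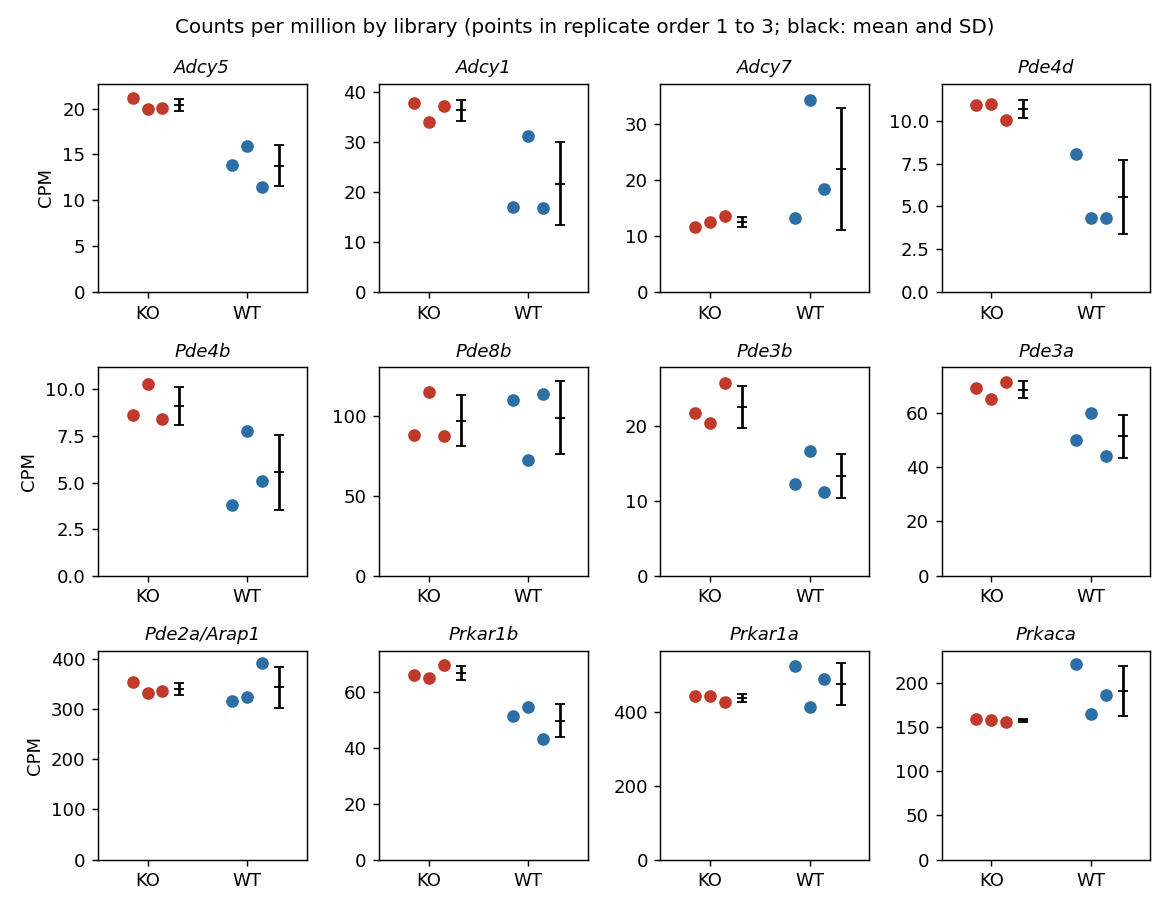
TMM-scaled CPM of 12 loci in each library, KO on the left and WT on the right of each panel, with the mean and SD in black. The KO points of Adcy5, Pde4d, Pde3b and Prkar1b lie above every WT point, those of Prkaca lie below, and in Adcy1 and Adcy7 1 WT library, replicate 2, stands apart from the other WT libraries.

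Phosphodiesterases that break down cAMP alone numbered 8, all tested and none called, with a median log2 fold change of 0.10 (0.30 with equal Rn7sk counts and 0.34 with total counts alone, or 0.11 and 0.12 relative to all loci). Pde8b (chromosome 13, 95024454 to 95250336), a high-affinity enzyme of the adrenal cortex, had the highest level per length, 16.5 ± 2.7 CPM per kb in KO and 16.8 ± 3.88 in WT. It stood at 88.1, 115 and 87.7 CPM in KO and 110.2, 72.8 and 114 CPM in WT, with overlapping groups and a log2 fold change of -0.029 (SE 0.20) that turned positive with equal Rn7sk or total counts. Next per length were Pde7a, at 9.17 CPM per kb in KO and 12.8 in WT, and Pde8a, at 9.9 and 10.3. Pde8a lay between 33.5 and 46.8 CPM in KO and between 41.1 and 43.0 CPM in WT, and Pde7b between 13.7 and 15.4 CPM in KO and between 11.2 and 18.9 CPM in WT, both with overlap.

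The members of the Pde4 subfamily, the enzymes that rolipram inhibits, were at lower levels. Pde4d (chromosome 13, 108449948 to 109953461) stood at 10.95, 11.01 and 10.1 CPM in KO and 8.04, 4.32 and 4.33 CPM in WT. The groups did not overlap, WT replicate 1 lay nearest to KO, and the log2 fold change was 0.94 (SE 0.27), a 1.92-fold ratio (adjusted p = 0.122 by edgeR). With equal Rn7sk counts Pde4d was called (log2 fold change 1.16, adjusted p = 0.0477). The long Pde4d locus is overlapped by 18 other loci, most of them unnamed, which together hold 28017 counts over the 6 libraries beside 5069 of Pde4d itself, and how reads were divided between them is not given in the sources used here. Pde4b stood at 8.61, 10.3 and 8.42 CPM in KO and 3.79, 7.74 and 5.09 CPM in WT, without overlap (log2 fold change 0.72, SE 0.27, adjusted p = 0.199 by edgeR). The Pde4b locus is overlapped by 2 unnamed loci, with 1181 counts over the 6 libraries beside 4618 of Pde4b. Pde4a lay between 9.96 and 11.4 CPM in KO and between 7.28 and 10.7 in WT, and Pde4c was near 1 CPM in both groups, between 0.96 and 1.32 in KO and between 0.604 and 1.37 in WT. In Pde7a, KO replicate 1 was the lowest library, at 108 CPM beside 199 and 155 in the other KO libraries and 192, 236 and 216 CPM in WT.

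The enzymes that break down both cAMP and cGMP numbered 8, all tested and none called, 4 with an unadjusted p under 0.05 and a positive log2 fold change, and 4 without overlap, all of them with KO above WT. Of all tested loci, 12.5% had such a p with a positive log2 fold change, and 16.3% had KO above WT without overlap. Pde3b (chromosome 7, 114415281 to 114539251), which cGMP inhibits and which insulin activates in fat, stood at 21.7, 20.4 and 25.8 CPM in KO and 12.3, 16.7 and 11.1 CPM in WT. Its log2 fold change was 0.76 (SE 0.18), a 1.69-fold ratio, and it had the smallest p of all members (adjusted p = 0.0870 by edgeR, DESeq2 adjusted p = 0.00688). Pde3a, its paralog of heart, smooth muscle and oocytes, stood at 69.1, 65.0 and 71.2 CPM in KO and 50.1, 59.7 and 44.2 CPM in WT, also without overlap (log2 fold change 0.41, SE 0.13, adjusted p = 0.134 by edgeR). The Pde3a locus is overlapped by 5 other loci, 4 on its strand, with 7673 counts over the 6 libraries beside 38113 of Pde3a.

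Pde1c, an enzyme activated by calcium and calmodulin, was at a low level of 1.34, 2.02 and 1.4 CPM in KO and 0.859, 0.589 and 0.374 CPM in WT, a log2 fold change of 1.38 (SE 0.36, adjusted p = 0.102 by edgeR) with no overlap. With equal Rn7sk counts it was called (1.58, adjusted p = 0.0500). On its strand 2 other loci overlap it, with 226 counts over the 6 libraries beside 676 of Pde1c. Pde2a, the enzyme that cGMP activates and that is known from the zona glomerulosa, had the highest level per length of the dual enzymes, 16.9 CPM per kb in KO and 17.02 in WT, but its locus (chromosome 7, 101348067 to 101512827) is merged with its neighbour Arap1, so that their reads cannot be told apart. The merged locus Pde2a/Arap1 stood at 354, 331 and 335 CPM in KO and 316, 323 and 391 CPM in WT, with overlapping groups and a log2 fold change of -0.014 (SE 0.11) that turned positive with equal Rn7sk or total counts. Markers of the zona glomerulosa (6 of 6 tested, none called) summed to 17923, 14458 and 17202 CPM in KO and 33605, 20120 and 22759 CPM in WT. This sum is carried by 2 loci with negative log2 fold changes, Cyp11b1/Cyp11b2 and the merged Hsd3b1/Hao2/Hsd3b2/Hsd3b6, while the other 4 (Dab2, Shh, Cpb1/Agtr1b and Vsnl1) had positive ones, and the median was 0.24. Cyp11b1 and Hsd3b1 are also in the list of steroid-making cortex markers, so the sums of both lists share loci. The part of glomerulosa cells in the Pde2a value was not tested.

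A pair of other dual enzymes also lie in merged loci. Pde10a with Tagap, Rsph3a and Mpc1 stood at 105, 125 and 112 CPM in KO and 98.0, 81.2 and 100.5 CPM in WT (log2 fold change 0.29, SE 0.12, adjusted p = 0.215 by edgeR), without overlap between the groups. This merged locus is overlapped by 17 other loci, 6 of them on the same strand. They hold 53200 counts over the 6 libraries beside its own 64079. Pde1b with Nckap1l, a gene of blood cells, stood at 26.0, 29.0 and 27.6 CPM in KO and 20.6, 79.1 and 43.9 CPM in WT, with WT replicate 2 and then WT replicate 3 highest, as in the macrophage marker sum. The part of macrophages in this locus was not tested. Without the merged loci the median log2 fold change of the dual enzymes was 0.76, against 0.35 with them. Pde1a lay between 6.76 and 9.78 CPM in KO and between 6.9 and 11.9 in WT, and Pde11a, a phosphodiesterase mutated in some human adrenal hyperplasias, between 0.201 and 0.426 CPM in KO and between 0.108 and 0.287 in WT, both with overlap.

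Of the 7 loci of cGMP-specific phosphodiesterases, 4 were tested and none was called. Pde5a (chromosome 3, 122728947 to 122859374), the target of sildenafil, held nearly all of the length-scaled counts of the family, 95.5 ± 0.841% in KO and 98.2 ± 0.743% in WT (SD, n = 3 each). It stood at 93.9, 90.2 and 90.5 CPM in KO and 106, 83.3 and 118 CPM in WT, with overlapping groups and a log2 fold change of -0.16 (SE 0.13) that turned positive with equal Rn7sk or total counts. Pde9a, which has a high affinity for cGMP, stood at 1.09, 1.46 and 0.935 CPM in KO and 0.514, 0.457 and 0.736 CPM in WT, without overlap, a log2 fold change of 1.03 (SE 0.30, adjusted p = 0.124 by edgeR). The remaining loci encode the photoreceptor enzyme. Pde6g, its inhibitory subunit in rods, was at 34, 13 and 26 counts in KO and 12, 11 and 3 counts in WT (log2 fold change 1.46, SE 0.52, adjusted p = 0.176 by edgeR). Pde6a, a catalytic subunit in rods, had 101, 53 and 49 counts in KO and 68, 0 and 7 counts in WT, with overlap. Its locus is overlapped on the other strand by Rps2-ps10, with 13392 counts over the 6 libraries beside 278 of Pde6a. Pde6b had no count in any library, Pde6c had 6 counts in KO replicate 3 and 0 in the others, and Pde6h had at most 22 counts in KO and 12 in WT, so that these 3 loci were not tested.

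The name-only members were not called either. Pde4dip stood at 45.7, 45.4 and 48.0 CPM in KO and 40.9, 45.1 and 35.6 CPM in WT, without overlap (log2 fold change 0.20, SE 0.11, adjusted p = 0.338 by edgeR). Pde6d stood at 6.94, 12.1 and 7.89 CPM in KO and 10.1, 13.6 and 11.9 CPM in WT, with overlap (log2 fold change -0.40, SE 0.24, adjusted p = 0.367 by edgeR).

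PKA is a tetramer of regulatory and catalytic subunits, and of its 4 regulatory subunit genes, all tested, none was called. Prkar1a (chromosome 11, 109649405 to 109669656), the widely expressed type I alpha subunit whose promoter is printed above, took 70.1%, 72.9% and 67.0% of the length-scaled regulatory counts in KO and 75.3%, 73.9% and 76.1% in WT. It stood at 443, 443 and 426 CPM in KO and 524, 415 and 488 CPM in WT, with overlapping groups and a log2 fold change of -0.12 (SE 0.11, adjusted p = 0.573 by edgeR) that turned positive with equal Rn7sk or total counts. The WT libraries followed the order of the steroidogenic marker sum, replicate 1 highest and replicate 2 lowest. In KO, Prkar1a was lowest in replicate 3 and that sum in replicate 2. The part of cortical cells in Prkar1a was not tested.

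Prkar1b (chromosome 5, 139017306 to 139150693), the type I beta subunit known best from neurons, stood at 65.9, 64.7 and 69.5 CPM in KO and 51.2, 54.5 and 43.0 CPM in WT. All KO libraries lay above all WT libraries, with a log2 fold change of 0.43 (SE 0.11), a 1.35-fold ratio (adjusted p = 0.0977 by edgeR, DESeq2 adjusted p = 0.029). Its locus also takes in the noncoding Gm15672 and is overlapped by Dnaaf5 on the other strand, whose reads may not be told apart from it since the use of strand in counting is not given in the sources used here. Neuron markers (5 of 5 tested, 2 called higher) summed to 97.1, 112 and 101 CPM in KO and 54.8, 70.1 and 51.4 CPM in WT, without overlap. Of these, 3 (Nefm, Stmn2 and Snap25) had positive log2 fold changes, while Nefl had a negative one and Rbfox3 lay lower in all KO libraries than in any WT library. All 14 chromaffin markers had positive log2 fold changes. Of all tested loci, 49.3% had a positive log2 fold change, 1.41% were called higher and 16.3% had KO above WT without overlap. The part of either cell type in Prkar1b was not tested. Prkar2b, the type II beta subunit, stood at 59.3, 46.3 and 67.3 CPM in KO and 57.6, 37.4 and 50.3 CPM in WT, with overlap (log2 fold change 0.25, SE 0.20, adjusted p = 0.503 by edgeR). Its share of the length-scaled regulatory counts was 13.2 ± 2.15% in KO and 10.9 ± 1.19% in WT (SD, n = 3 each), a difference of 2.28 percentage points that did not pass (exact permutation test, two-sided, p = 0.30, where 0.1 is the smallest that 3 against 3 can give). Prkar2a, the type II alpha subunit, lay between 42.2 and 54.98 CPM in KO and between 48.0 and 48.9 CPM in WT.

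Both catalytic subunit genes had negative log2 fold changes, with neither called. Prkaca (chromosome 8, 83972993 to 83996443), the main catalytic subunit and a gene mutated in human cortisol-producing adenomas, stood at 159, 158 and 156 CPM in KO and 221, 165 and 186 CPM in WT. The KO libraries lay close together below every WT library, and the log2 fold change was -0.27 (SE 0.12, adjusted p = 0.247 by edgeR), or -0.16 without WT replicate 1. Zswim4 overlaps it on the other strand. As for Prkar1a, its WT libraries ran in the order of the steroidogenic marker sum. In KO, Prkaca was lowest in replicate 3 and that sum in replicate 2. The part of cortical cells in Prkaca was not tested. Prkacb stood at 189, 170.0 and 101 CPM in KO and 191, 189 and 177 CPM in WT. KO replicate 3, the library with the hepatocyte markers, was the lowest, while KO replicates 1 and 2 lay at or near the WT level (log2 fold change -0.28, SE 0.23, adjusted p = 0.511 by edgeR). Without KO replicate 3 the log2 fold change was -0.049. The part of hepatocyte RNA in the low Prkacb value was not tested. The median log2 fold change of the catalytic genes was -0.28, and -0.078 with equal Rn7sk counts and -0.041 with total counts alone, which is -0.27 and -0.26 relative to all loci.

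The ratio of regulatory to catalytic counts per length does not depend on library scaling. It was 1.40, 1.39 and 1.64 in KO and 1.197, 1.21 and 1.28 in WT, with means of 1.48 ± 0.139 in KO and 1.23 ± 0.0467 in WT (SD, n = 3 each). All KO libraries lay above all WT libraries, a difference of 0.247 (exact permutation test, two-sided, p = 0.1, the smallest this design can give). Without KO replicate 3, the library with the low Prkacb, the difference was 0.167. The ratio does not say which kind of subunit RNA any difference would lie in.

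**Figure D3:**
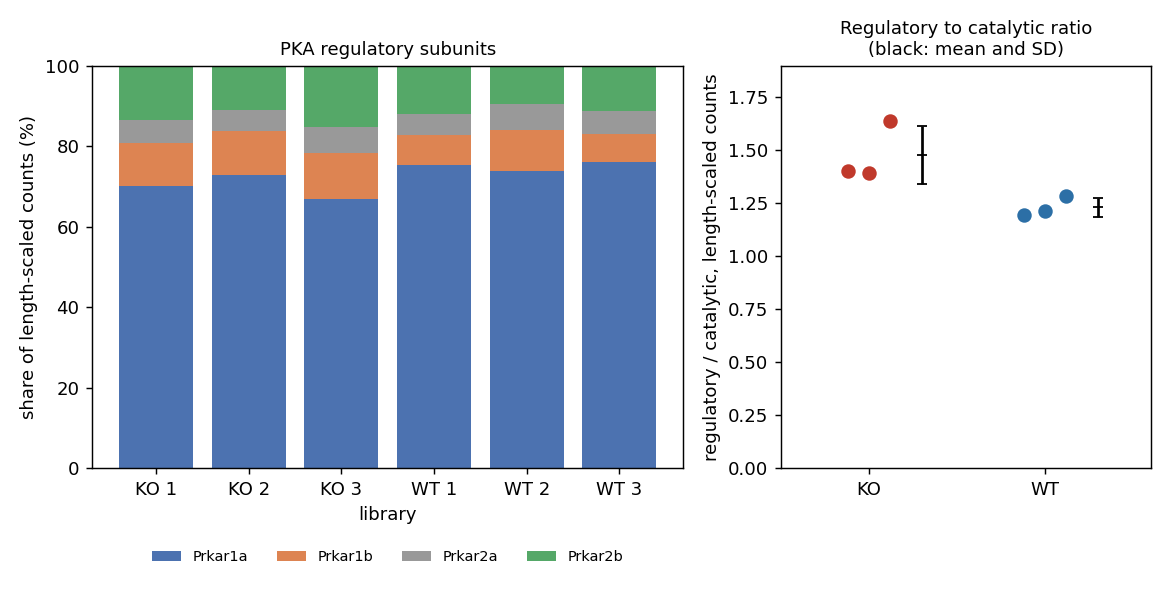
Left, the share of each regulatory subunit in the length-scaled counts of the 4 Prkar loci, for each KO and WT library. Prkar1a takes 67.0% to 72.9% in KO and 73.9% to 76.1% in WT. Right, the ratio of summed Prkar to summed Prkaca and Prkacb length-scaled counts, between 1.39 and 1.64 in KO and between 1.197 and 1.28 in WT.

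The PKA inhibitors, small proteins that bind the free catalytic subunit as a pseudosubstrate, were all tested and none was called. Pkig had the highest level per length, 3.85 CPM per kb in KO and 3.78 in WT, and stood at 11.9, 18.3 and 15.9 CPM in KO and 11.9, 14.5 and 18.9 CPM in WT (log2 fold change 0.027, SE 0.23). Pkia stood at 8.57, 9.95 and 10.9 CPM in KO and 8.31, 11.4 and 8.67 CPM in WT (log2 fold change 0.049, SE 0.17). Both overlapped between the groups. Pkib stood at 1.92, 2.77 and 1.9 CPM in KO and 1.85, 1.29 and 1.23 CPM in WT, without overlap but with KO replicate 3 and WT replicate 1 nearly level (log2 fold change 0.59, SE 0.26, adjusted p = 0.25 by edgeR).

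Among the transcription factors and coactivators of the pathway, all 4 tested, none was called and the median log2 fold change was -0.0025 (0.19 with equal Rn7sk counts and 0.23 with total counts alone, or -0.0063 and 0.0046 relative to all loci). Crtc2, a coactivator that cAMP brings into the nucleus, had the highest level per length, 9.996 CPM per kb in KO and 10.7 in WT. It stood at 48.0, 49.7 and 48.5 CPM in KO and 53.2, 52.9 and 49.7 CPM in WT, where the highest KO library and the lowest WT library were nearly level (log2 fold change -0.093, SE 0.076, adjusted p = 0.506 by edgeR), and the sign turned with equal Rn7sk or total counts. Creb1 stood at 65.2, 64.8 and 63.4 CPM in KO and 48.5, 68.9 and 37.8 CPM in WT, with KO libraries close together inside a wide WT range (log2 fold change 0.32, SE 0.21, adjusted p = 0.418 by edgeR). The log2 fold change was 0.60 without WT replicate 2 and 0.13 without WT replicate 3. Crem, which encodes both activators and the inducible cAMP early repressor, lay between 107 and 164 CPM in KO and between 121 and 187 in WT, and Crtc1 between 35.1 and 48.5 CPM in KO and between 34.6 and 47.2 in WT. Cope and Cers1/Gdf1 overlap Crtc1 on the other strand, with 37784 counts over the 6 libraries beside 25378 of Crtc1.

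**Figure D4:**
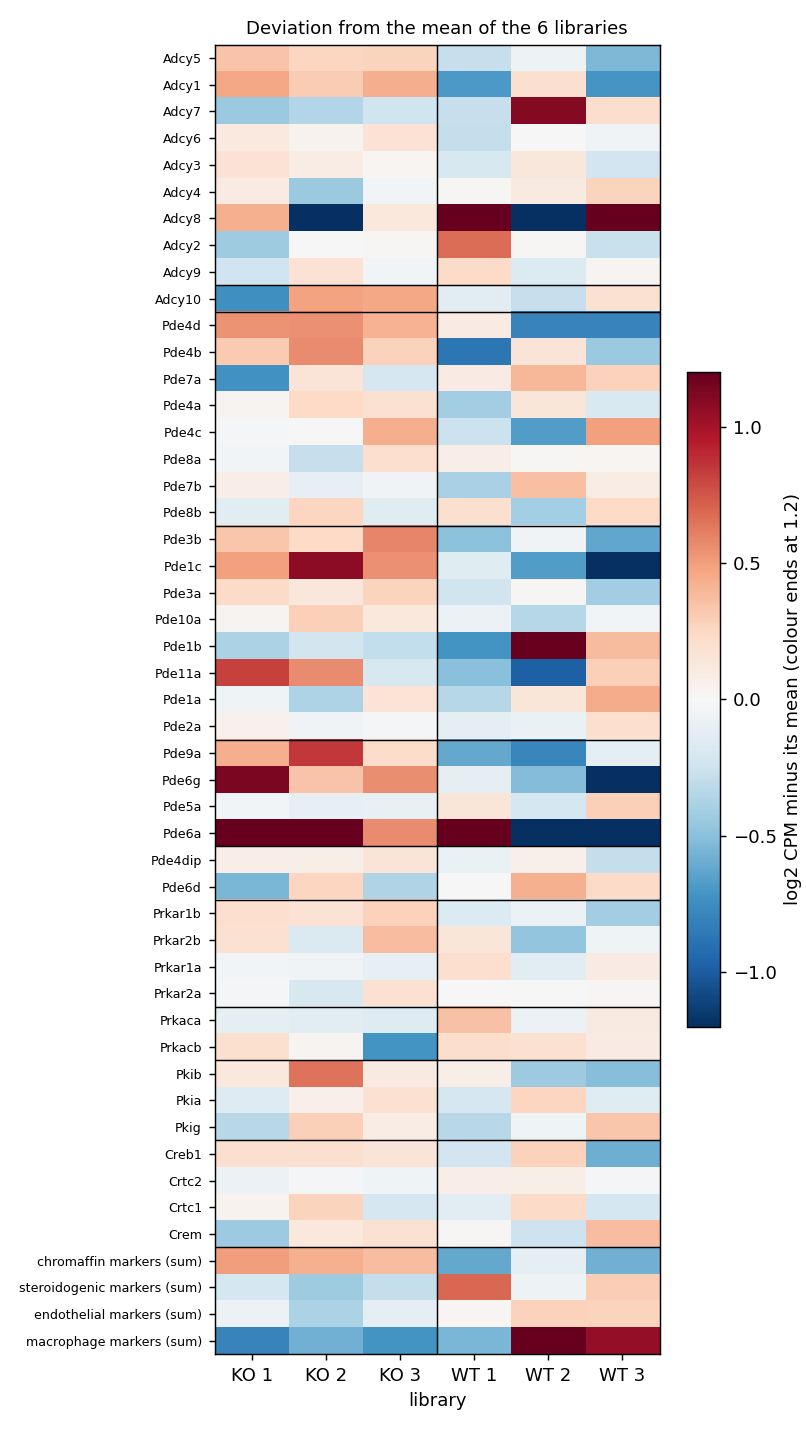
Log2 CPM of each tested locus minus its mean over the 6 libraries, KO left and WT right, with lines between families and, in the last rows, the same for summed cell markers. Adcy7 and Pde1b are highest in WT replicate 2 like the macrophage markers, and Adcy5, Adcy1 and Pde3b are above their mean in all KO libraries like the chromaffin markers.

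Other genes of cyclic nucleotide signalling were counted by list. The median log2 fold change was 0.21 over the genes of cGMP synthesis and kinases, 0.35 over other cAMP effectors, -0.16 over the receptor and G proteins, -0.13 over anchoring proteins, -0.25 over CREB partners and -0.32 over genes known to respond to cAMP, against -0.0063 over all loci. Of 8 tested genes of cGMP synthesis and kinases, 1 was called, higher in KO, and 4 had an unadjusted p under 0.05, all with positive log2 fold changes. Of all tested loci 1.41% were called higher, and at an unadjusted p under 0.05 the log2 fold change was positive in 12.5% and negative in 9.73%, which is the background for each list here. The called gene was Gucy1b1, the beta subunit of the nitric oxide receptor soluble guanylyl cyclase, at 22.4, 23.7 and 24.4 CPM in KO and 16.0, 16.0 and 15.7 CPM in WT. It rose 1.48-fold (log2 fold change 0.56, SE 0.087, adjusted p = 0.0434 by edgeR), but it was not called when any 1 library was left out (adjusted p from 0.0506 to 0.159), nor without the count filter (0.0546). Of 14 tested loci of other cAMP effectors, 1 was called, Cnga4, a subunit of the olfactory cyclic nucleotide-gated channel, with 58, 31 and 59 counts in KO and 3, 6 and 3 counts in WT. It rose 11.8-fold (log2 fold change 3.56, SE 0.37, adjusted p = 0.0161 by edgeR), and was not called without any 1 of KO replicates 1, 2 and 3 or WT replicate 3 (adjusted p from 0.0733 to 0.107).

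The other lists had no gene called by edgeR under TMM scaling. DESeq2 called 1 higher and 2 lower of the receptor and G proteins, 1 and 2 of the anchoring proteins, and 0 and 1 of the CREB partners. Limma-voom called none of the first 2 of these lists and 1 CREB partner, lower. Of the genes known to respond to cAMP it called 1 higher and 2 lower, against 4.76% and 2.28% of all its loci. Of 13 tested loci of the receptor and its G proteins, 2 had an unadjusted p under 0.05 in each direction, with Gnai2, an inhibitory G protein subunit, at the smallest p (155 ± 5.14 CPM in KO and 195 ± 10.3 in WT, SD, n = 3 each, log2 fold change -0.33, adjusted p = 0.0952 by edgeR). Of 15 tested anchoring proteins of PKA, 1 had such a p with a positive and 2 with a negative log2 fold change, Akap12 having the smallest p (31.2 ± 4.67 CPM in KO and 48.9 ± 8.41 in WT, log2 fold change -0.65, adjusted p = 0.099 by edgeR). Of 8 CREB partners and kinases the 1 with such a p was Atf1, the close relative of Creb1 (36.1 ± 2.84 CPM in KO and 47.9 ± 0.843 in WT, log2 fold change -0.41, adjusted p = 0.0744 by edgeR). Of 14 genes known to respond to cAMP, 2 had a positive and 4 a negative log2 fold change at such a p, and DESeq2 called 2 higher and 4 lower, where of all its loci 7.49% were called higher and 4.88% lower. Star and Cyp11a1 of this list are also steroidogenic cortex markers, and the part of cortical cells in it was not tested. Inhba, the inhibin beta A subunit, had the smallest p (8.23 ± 0.691 CPM in KO and 3.47 ± 1.1 in WT, log2 fold change 1.25, adjusted p = 0.0697 by edgeR).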

How the data were processed

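RNA of 3 KO and 3 WT adrenal gland samples was sequenced from both ends on strand-keeping libraries, per the labels' protocols. The notes on processing that the submitters gave name GRCm38, and as tools edgeR, StringTie, Picard, STAR and Trimmomatic. The sources used here give neither their versions nor the counting program. The authors deposited whole-number counts per locus, raw per the file headers, with locus lengths in base pairs. Deposited log2 values were not used. Coordinates are those of the deposited table.

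Members and lists were chosen with earlier results of these data known. Named loci were filtered with filterByExpr, TMM-scaled and tested with edgeR 4.0.16 (R 4.3.3; robust glmQLFit, then a two-sided glmQLFTest), with Benjamini-Hochberg adjustment over 21358 loci, and an adjusted p under 0.05 was called. The test was checked on simulated data. SE is the log2 fold change divided by the square root of F. CPM per kb divides by the deposited length. DESeq2 1.42.0, limma 3.58.1 (voom) and SciPy 1.17.1 (exact permutation) served beside it. Loci without a name, 1.39% to 2.04% of a library's counts, were left out. Full per-sample values are given, by rule, for the 2 members of a family with the smallest p and its most abundant member per length, and for the called genes of each other list. For a list without a called gene, the mean and SD of the gene with the smallest p are given. Adcy6, Adcy7, Adcy8, Pde3a, Pde7a, Pde10a, Pde1b/Nckap1l and Pde6a, which the rule does not name, were given in full after their values were seen. The alternatives were, for scaling, equal Rn7sk counts, RLE factors or total counts alone, for filtering, 10 CPM or more in 3 libraries or all loci with any count, and further a replicate block, leaving out each library, DESeq2, limma-voom with sample weights, leaving out merged loci, and counts not divided by length.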

Additional observations from a re-analysis of the deposited data

How the results depend on the processing

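The number of member loci called higher, 0 in the edgeR test, was 6 by DESeq2, 6 by limma-voom with sample weights, 2 with equal Rn7sk counts and 0 to 2 when 1 library was left out. The number called lower was 0 in every alternative run. Calls over all loci moved as well: 393 became 2626 by DESeq2, 1503 by limma-voom, 711 with equal Rn7sk counts, 674 with total counts alone and 15 to 644 without 1 library. With the replicate number as a block there were 5. The same-numbered libraries did not deviate together (correlations of -0.0857, 0.0118 and -0.142 for numbers 1, 2 and 3), so the numbers were not taken to pair the samples. Under the block Gucy1b1 and Cnga4 were not called (adjusted p = 0.154 and 0.121), and no member was.

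With equal Rn7sk counts the median of all loci moved to 0.19 and with total counts alone to 0.22. Under these scalings the family medians were 0.13 and 0.17 for transmembrane cyclases, 0.30 and 0.34 for cAMP-specific, 0.55 and 0.58 for dual and 0.081 and 0.12 for name-only phosphodiesterases, 0.34 and 0.36 for regulatory and -0.078 and -0.041 for catalytic subunits, 0.24 and 0.26 for inhibitors and 0.19 and 0.23 for the CREB family. Requiring at least 10 CPM in 3 libraries, which leaves fewer members, gave 0.27 for the cyclases and -0.087 for cGMP-specific phosphodiesterases (1.21 without that filter). The -0.087 is the value of Pde5a alone, since Pde9a, Pde6g and Pde6a lay below 10 CPM in every library. Leaving out merged loci gave 0.76 for dual phosphodiesterases. Without 1 library the medians ran from -0.14 to 0.036 for cyclases, 0.85 to 1.39 for cGMP-specific phosphodiesterases and -0.039 to 0.23 for inhibitors.

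Log2 fold changes near 0 changed sign. For scaling, filtering and limma-voom, the lists here cover only members that the rule named. With equal Rn7sk counts and total counts alone these were Adcy9 (0.13 and 0.17), Pde8b (0.17 and 0.22), Pde2a/Arap1 (0.18 and 0.22), Pde5a (0.042 and 0.076), Prkar1a (0.086 and 0.12) and Crtc2 (0.11 and 0.14). With at least 10 CPM required Adcy9 (0.010), Pde8b (0.049) and Pde2a/Arap1 (0.059) did, and by limma-voom Adcy10 (-0.077) and Pkig (-0.17). Without 1 library Adcy9 ran from -0.18 to 0.036, Pde8b from -0.19 to 0.082, Pde2a/Arap1 from -0.072 to 0.087, Pkia from -0.039 to 0.23 and Pkig from -0.12 to 0.22. Members outside the rule crossed 0 as well. Prkar2a ran from -0.10 to 0.086, Crem from -0.20 to 0.095 and Crtc1 from -0.046 to 0.24. Pde8a ran from -0.19 to 0.050, Pde7b from -0.25 to 0.13 and Pde1a from -0.37 to 0.0034. Other log2 fold changes moved by over 1.5 times without 1 library, beside those given with their gene above: Adcy10 to 0.055 (KO replicate 3) or 0.59 (KO replicate 1), Pde5a to -0.054 (WT replicate 3) or -0.27 (WT replicate 2), Prkar1a to -0.046 (WT replicate 1) or -0.19 (WT replicate 2), Prkar2b to 0.11 (WT replicate 2) or 0.39 (WT replicate 1), Pde4dip to 0.11 (WT replicate 3) or 0.30 (WT replicate 2), Pde6d to -0.25 (KO replicate 1) or -0.68 (KO replicate 2), Prkacb to -0.46 (KO replicate 1), Adcy6 to 0.13 (WT replicate 1) and Pkib to 0.39 (KO replicate 2). Further members outside the rule moved as well. Pde4c ran from 0.016 to 0.62, Adcy2 from -0.51 to -0.0069, Pde1b/Nckap1l from -1.16 to -0.21 and Pde6a from 0.80 to 4.09. Pde7a ran from -0.71 to -0.28, Adcy8 from -1.52 to -0.62 and Adcy3 from 0.11 to 0.32. Adcy4 ran from -0.36 to -0.10, Pde4a from 0.16 to 0.47 and Pde11a from 0.58 to 1.29. Apart from shifts that the scaling itself makes, the cause of these moves was not tested. The difference in regulatory to catalytic ratio ran from 0.167 to 0.289 without 1 library and was 0.347 with counts not divided by length, and that in the Prkar2b share ran from 1.28 to 3.42 percentage points and was 1.69. That no member passed by edgeR does not show that the groups were alike.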
